A study of Homo sapiens with 40 samples.

Results

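Histone genes were followed across 3 inhibitors of phosphoinositide 3-kinase (PI3K) in A2058, an established human melanoma cell line. The members were all genes named by a single symbol on the array whose symbol was that of a clustered histone gene (H2AC, H2BC, H3C or H4C with a number) or began with H1-, the prefix of the linker histones. They came to 50 of 19775 named genes: 11 of the H1, 9 of the H2A, 14 of the H2B, 7 of the H3 and 9 of the H4 family. The rule uses symbols only, and no measured value enters it. The cells were treated once, for 24 hours, with BKM120 (buparlisib, a class I PI3K inhibitor) at its IC30, its IC50 and a level named IC90 (max), with BEZ235 (dactolisib, an inhibitor of PI3K and of the kinase mTOR) at IC50, IC90 and max, or with GDC0941 (pictilisib, a class I PI3K inhibitor, spelled GCD0941 in some labels) at IC50, IC90 and max. Control cells received DMSO. Each of the 10 groups held 4 biological replicates of this single line, on 40 one-colour arrays with intensity values from MAS5. The labels name no molar doses, so equal names do not mean equal doses. All 9 comparisons with DMSO share the same 4 control arrays.

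Histones package DNA: H2A, H2B, H3 and H4 form the nucleosome core, and H1 binds the linker DNA between cores. Most of their genes sit in clusters and are switched on together in S phase through NPAT, and their mRNAs usually end in a stem-loop, bound by the stem-loop binding protein SLBP, and not in a poly(A) tail. Some clustered genes also make polyadenylated transcripts, which can persist outside S phase. The labels name an amplification from 50 ng of total RNA and do not say how transcripts without a poly(A) tail were captured, so levels of different histone genes are not compared with each other here.

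Of the 50 genes, 42 lie on chromosome 6 between 25726777 and 27893891 (GRCh38.p14), in the large histone cluster. H2AC25 and H2BC21 lie on chromosome 1. The rule also took in genes outside the clusters: H1-10 (a replication-independent linker histone), H1-8 and the antisense transcript H1-10-AS1 on chromosome 3, H1-7 on chromosome 12, the pseudogene H1-9P on chromosome 17 and H2BC12L on chromosome 21. A filter on dim genes left 28 members in the test: 7 H1, 6 H2A, 9 H2B, 3 H3 and 3 H4 genes. The filter kept genes whose mean log2 signal over all arrays was above the 40th percentile. The members just above it were H1-1, H1-4 and H4C9, with mean signals of 16.3, 15.6 and 14.8, and those just below it were H3C2, H3C1 and H4C5, with 12.9, 10.7 and 10.4. Histone coding sequences are alike, so probes can take signal from several copies. The probe sets used for H2BC12L, H2BC5, H2BC6, H2BC9, H4C11 and H2AC14 are of the design that the maker marks as cross-hybridising (x_at), and those of H2AC6, H2BC21 and H1-10 of the design shared by related transcripts (s_at), so the 9 genes are uncertain as single genes. The other 19 tested members had plain probe sets.

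RefSeq promoters (GRCh38.p14) were found for 43 of the 50 genes, 25 of them tested, and the 250 bases before each start were searched on both strands. The octamer ATTTGCAT, known from H2B promoters, was present in 10 of 13 H2B promoters (76.9%) and in 6 of 8 H2A promoters (75.0%). Of 27305 promoters in the table, 1.68% held it. H2AC14 with H2BC14, H2AC17 with H2BC17, and H2BC4 with H2AC6 lie on opposite strands with 239 to 245 bases between their starts. The stretches searched for the partners are nearly the same DNA, so 1 match can count in both families. CCAAT was present in 86.0% of histone promoters against 32.9% of all, and TATAAA in 65.1% against 11.3%. The H1 box AAACACA was present in 7 of 9 H1 promoters (77.8%), against 4.96% of all. These matches are descriptions of the sequence and not measured binding sites. The printed sequences are those the results turn on: the stretches between the genes of the tested divergent pairs (H2AC17 with H2BC17, and H2BC4 with H2AC6), and the 250 bases before the genes with the largest rise (H2AC25) and the largest fall (H2BC11). Capitals mark ATTTGCAT, CCAAT or TATAAA on either strand, and matches that touch or overlap form 1 run of capitals.
H2AC17 and H2BC17, chr6:27893186-27893424, + strand, the whole 239 bases between the genes: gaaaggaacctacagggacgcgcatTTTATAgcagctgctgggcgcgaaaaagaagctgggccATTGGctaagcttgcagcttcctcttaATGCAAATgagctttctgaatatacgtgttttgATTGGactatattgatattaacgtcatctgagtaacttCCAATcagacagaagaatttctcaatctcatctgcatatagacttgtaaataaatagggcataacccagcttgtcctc
H2BC4 and H2AC6, chr6:26123927-26124171, + strand, the whole 245 bases between the genes: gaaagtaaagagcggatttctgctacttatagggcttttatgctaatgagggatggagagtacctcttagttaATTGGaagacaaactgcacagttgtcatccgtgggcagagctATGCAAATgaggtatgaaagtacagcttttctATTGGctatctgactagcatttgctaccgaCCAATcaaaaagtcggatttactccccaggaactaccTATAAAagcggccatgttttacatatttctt
H2AC25, chr1:228457874-228458123, - strand: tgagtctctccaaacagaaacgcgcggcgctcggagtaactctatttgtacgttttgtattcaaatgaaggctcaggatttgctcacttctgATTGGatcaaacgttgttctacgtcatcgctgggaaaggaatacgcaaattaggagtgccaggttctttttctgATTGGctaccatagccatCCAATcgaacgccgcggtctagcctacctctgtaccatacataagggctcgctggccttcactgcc
H2BC11, chr6:27132796-27133045, - strand: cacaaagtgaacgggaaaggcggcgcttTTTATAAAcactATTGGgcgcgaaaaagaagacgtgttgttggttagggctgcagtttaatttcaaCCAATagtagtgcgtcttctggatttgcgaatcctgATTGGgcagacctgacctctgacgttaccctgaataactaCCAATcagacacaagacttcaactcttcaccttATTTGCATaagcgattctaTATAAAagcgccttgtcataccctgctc
The H2AC25 stretch holds 3 CCAAT matches and no match to ATTTGCAT or TATAAA. The H2BC11 stretch holds 4 CCAAT matches, 1 octamer and 3 TATAAA matches, 2 of which overlap.

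The arrays carried the melanocyte lineage genes MITF, SOX10, PMEL and TYR at lowest signals of 1592, 1575, 709 and 621, and all 9 lineage markers named on the array passed the filter. Of the keratinocyte, endothelial and leukocyte lists 2 of 5, 2 of 5 and 1 of 7 genes passed the filter. KRT5, KRT1 and DSG3 (keratinocyte), CDH5, VWF and TEK (endothelial) and PTPRC, CD3D, CD3E, MS4A1 and CD14 (leukocyte) stayed at or below 9.0 on every array. KRT10, KRT14, KDR, PECAM1 and LYZ of those lists were detected, with DMSO means of 1037, 42.8, 33.2, 17.2 and 188. The fibroblast markers were mostly detected: 5 of 6 passed the filter, with DMSO means of 1202 for LUM, 55.1 for COL3A1, 43.2 for COL1A1, 35.9 for DCN and 32.8 for PDGFRA, and COL1A2 did not pass. Their part in the results was not tested. The summed signal of the 9 lineage markers was 7508 to 7918 in DMSO and 8326 to 11898 in the treatments, without overlap, and that part was not tested either. In bulk RNA, a change in the share of cells in S phase and a change of RNA per cell cannot be told apart. One array stood apart. BEZ235 IC50 replicate 3 had a ratio of 3′ to 5′ probe signal of 27.2 for ACTB and 3.44 for GAPDH, where the other 39 arrays had 1.58 to 2.33 and 1.05 to 1.26. A high ratio is a known sign of shortened RNA. The mean log2 signal of the 28 histone genes was also lowest on this array, at 6.49. The other 3 arrays of that group had between 6.96 and 7.03, and the DMSO arrays between 6.98 and 7.10. Counts and called changes that rest on this group are therefore given with and without that array.

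**Figure D1:**
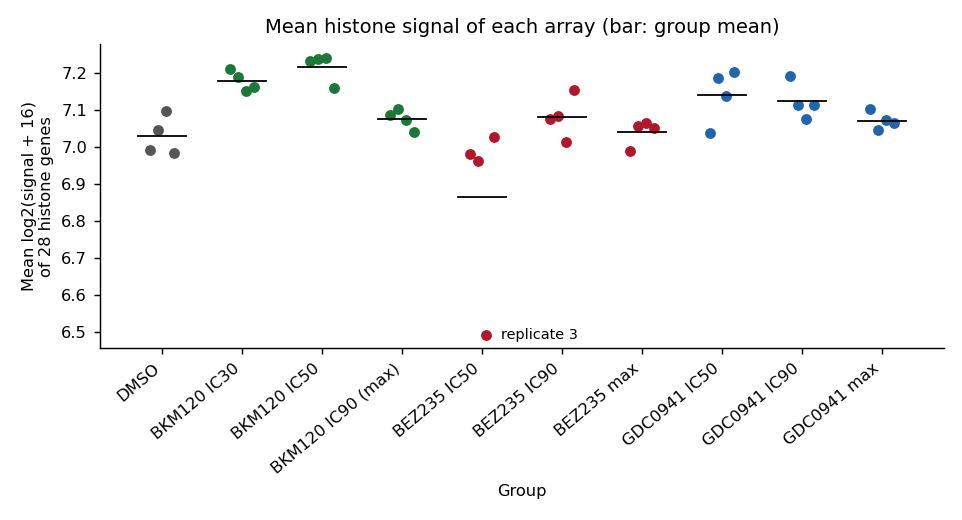
Mean log2(signal + 16) of the 28 tested histone genes on each of the 40 arrays, by group, with bars at group means. BEZ235 IC50 replicate 3 lies at 6.49, below every other array, and the BKM120 IC50 group has the highest mean, 7.22.

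Against DMSO, 22 of the 28 passed the test (limma, adjusted p under 0.05) in at least 1 of the 9 treatments, a share of 78.6% beside 82.7% of all 11865 genes tested. Of the 28, 10 rose in at least 1 treatment and 13 fell in at least 1, and only H1-1 did both. Of all 11865 genes, 6052 rose in at least 1, 4918 fell in at least 1 and 1162 did both. H1-4, H2AC17, H2AC4, H3C11, H3C3 and H4C11 passed in none of the 9. Without BEZ235 IC50 replicate 3, on 39 arrays, 25 of the 28 passed in at least 1 treatment, 89.3% beside 88.3% of all genes. Of these, 17 rose in at least 1, 14 fell in at least 1 and 6 did both, and H1-4, H2AC17 and H2AC4 passed in none. Among all 11865 genes on those 39 arrays, 6612 rose in at least 1, 5609 fell in at least 1 and 1748 did both. With all arrays the only call of H2BC5, H2BC9 and H1-9P was a fall at BEZ235 IC50, which was lost without that array. Irrespective of the test, the members higher than DMSO numbered 24, 25 and 16 of 28 for BKM120 IC30, IC50 and IC90 (max), beside 6455, 6633 and 5896 of 11865 genes. They numbered 22, 23 and 16 for GDC0941 IC50, IC90 and max, beside 6300, 6420 and 6563, and 8, 14 and 12 for BEZ235 IC50, IC90 and max, beside 6585, 6523 and 6501. No test of a common direction was run. Changes are differences of mean log2(signal + 16), a scale that understates the change of dim genes. Of 66 calls of a member against DMSO, 19 moved in size by over 1.5 times when 1 was added in place of 16, and 29 when 64 was added. H2AC16 at BEZ235 max, for one, changed by -0.89 with 16, -1.58 with 1 and -0.38 with 64, and H2BC17 at BKM120 IC50 by 0.66, 1.09 and 0.30.

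With BKM120, 5 of 28 genes changed at IC30 and all 5 rose, beside 21.3% of all genes (13.2% higher and 8.15% lower) called. At IC50, 4 changed and all 4 rose, beside 19.8% of all genes (12.6% higher and 7.24% lower). At IC90 (max), 3 rose and 1 fell, beside 34.2% of all genes (17.2% higher and 17.0% lower). With GDC0941, 5 changed at IC50 and all 5 rose, beside 16.1% of all genes (9.94% higher and 6.19% lower). At its IC90, 5 rose and 1 fell, beside 25.3% of all genes (15.4% higher and 9.83% lower), and at max 6 rose and 4 fell, beside 43.7% of all genes (25.5% higher and 18.2% lower). With BEZ235, 2 rose and 11 fell at IC50, beside 45.5% of all genes (26.6% higher and 18.9% lower). At its IC90, 6 rose and 4 fell, beside 55.0% of all genes (31.1% higher and 23.9% lower), and at max 5 rose and 4 fell, beside 57.7% of all genes (32.8% higher and 24.9% lower). The member shares, 14.3% to 46.4%, lay near or below these backgrounds. The count at BKM120 IC30 was 3 without DMSO replicate 1, 2 or 4 and 2 without BKM120 IC30 replicate 1. That at GDC0941 IC50 was 1 without its replicate 4, 2 without its replicate 2 or 3 or DMSO replicate 2 or 4, and 3 without DMSO replicate 1. That at GDC0941 IC90 was 3 without its replicate 1 or DMSO replicate 2, and that at GDC0941 max was 6 without DMSO replicate 4. The share of all genes called was not counted in those fits, so these counts have no background beside them. At the lower levels the medians were above those of all genes: 0.14 and 0.20 for BKM120 IC30 and IC50 beside 0.02 and 0.03, and 0.12 for GDC0941 IC50 beside 0.01. With BEZ235 IC50 the median of the members was -0.16 beside 0.04, and -0.07 without replicate 3.

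**Figure D2:**
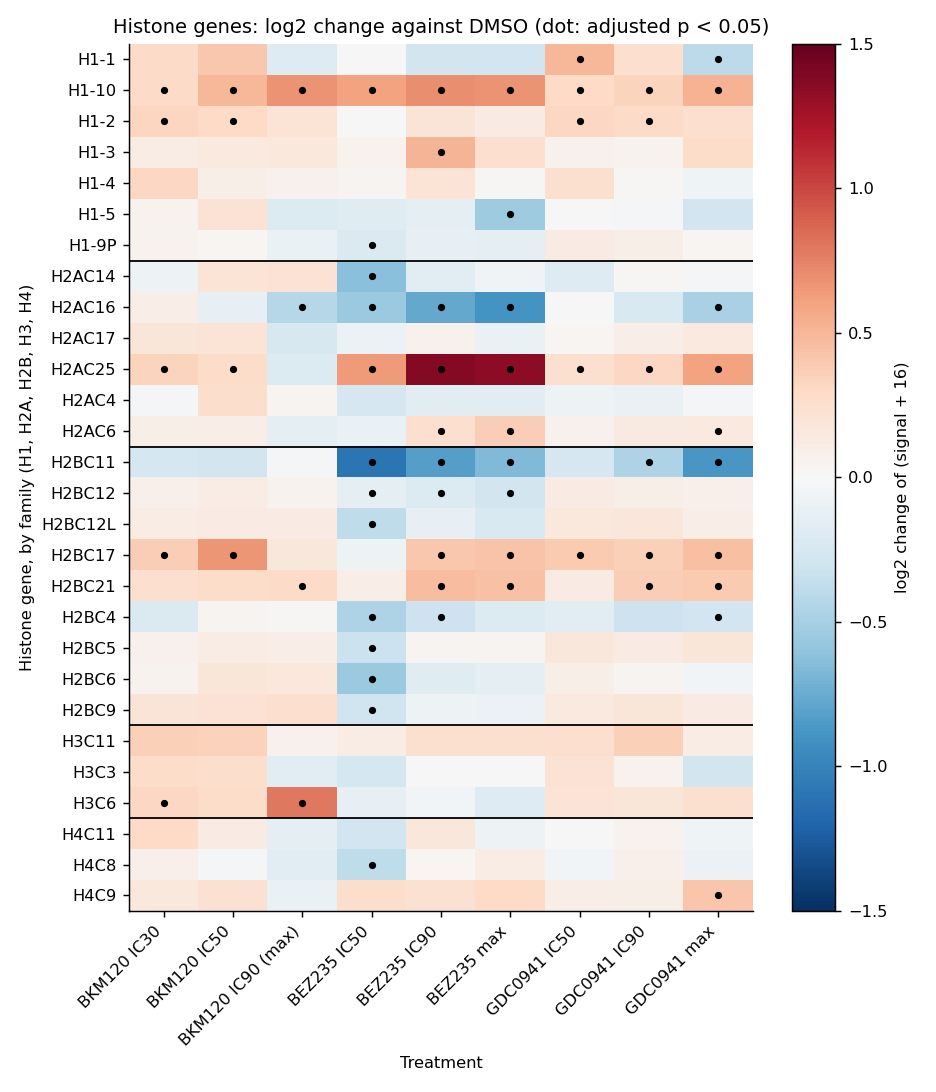
Log2 change against DMSO of the 28 tested histone genes (rows, by family) in the 9 treatments (columns), with dots where the adjusted p was under 0.05. H1-10 is the only gene with a dot in all 9 columns, H2AC25 has the largest rise (1.37 with BEZ235 IC90) and H2BC11 the largest fall (-1.10 with BEZ235 IC50).

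The array that stood apart also set how many genes were called elsewhere, because all groups share 1 estimate of the spread. Without it, on 39 arrays, the called members were 8 for BKM120 IC30, 12 for IC50 and 9 for IC90 (max), beside 29.4%, 29.0% and 43.4% of all genes. All 8 and all 12 at the lower levels rose. On the 39 arrays the shares of all genes called, here and below, were not split by direction. For BEZ235 IC50, IC90 and max they were 11, 12 and 11, beside 44.3%, 62.5% and 64.5%. For GDC0941 IC50, IC90 and max they were 8, 9 and 14, beside 24.0%, 33.9% and 51.7%. The members' count for BKM120 IC50 thus went from 4 to 12, from below to above its background. Below, a gene said to miss the threshold or to have no call did so with all arrays, unless another fit is named.

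**Figure D3:**
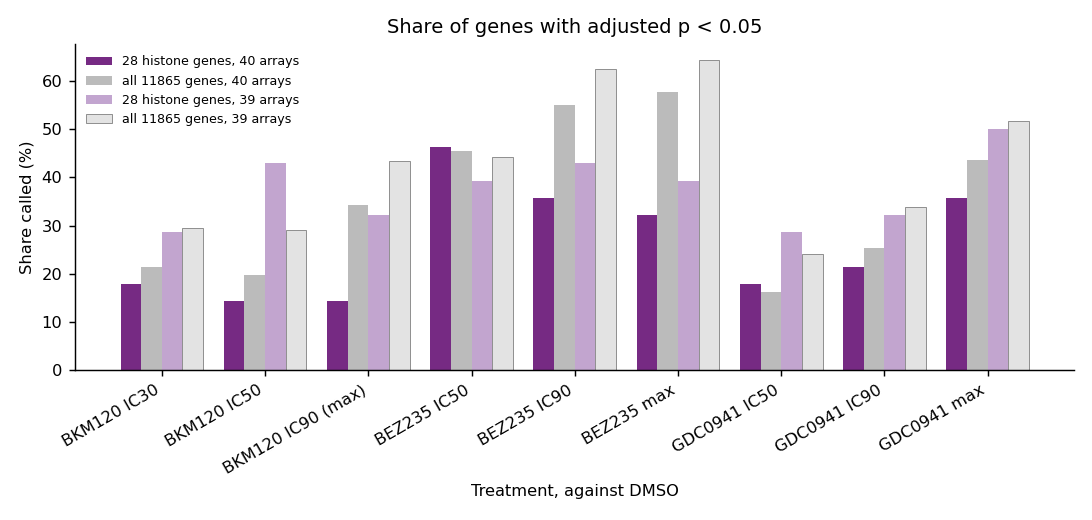
Share of genes called against DMSO in each treatment, in percent, for the 28 tested histone genes and for all 11865 genes, with all 40 arrays and on the 39 arrays without BEZ235 IC50 replicate 3. With BEZ235 IC90 the histone share is 35.7% beside 55.0% of all genes on 40 arrays.

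H2AC25 (older symbol HIST3H2A), a core histone H2A gene on chromosome 1 (228457364 to 228457873), had the largest rise. Its signal in DMSO was 471, 461, 497 and 484. With BEZ235 it was 865, 845, 557 and 779 at IC50, 1238, 1289, 1209 and 1314 at IC90 and 1201, 1241, 1225 and 1263 at max. No BEZ235 array overlapped DMSO, and the lowest of them was again IC50 replicate 3. The log2 changes (SE 0.09) were 0.63 (adjusted p = 2.45e-07), 1.37 (adjusted p = 7.02e-16) and 1.34 (adjusted p = 9.93e-16), so that the level at IC90 was 2.59-fold that of DMSO. Without replicate 3 the IC50 change was 0.77 (adjusted p = 1.29e-11). With GDC0941 max the arrays read 738, 683, 804 and 711, a change of 0.60 (adjusted p = 5.03e-07), and the IC90 group rose by 0.31 (adjusted p = 0.0059). The GDC0941 IC50 change of 0.24 (adjusted p = 0.0496) lost its call in 12 of 18 alternative settings, among them without any 1 of the DMSO replicates (adjusted p = 0.0606 to 0.118) and without GDC0941 IC50 replicate 2, 3 or 4 (adjusted p = 0.0612 to 0.184). BKM120 gave another course, with rises at IC30, 0.33 (adjusted p = 0.00464), and IC50, 0.28 (adjusted p = 0.0182), the latter lost without BKM120 IC50 replicate 2 (adjusted p = 0.0512) and by the mean over the gene's probe sets, 0.31 (adjusted p = 0.0502). At IC90 (max) its arrays read 411, 424, 402 and 418, all below DMSO, with a change of -0.20 that missed the threshold (adjusted p = 0.069). A further probe set of the gene, of the x_at design, gave 1.06 at BEZ235 IC90 (adjusted p = 3.55e-07) and 0.98 at max (adjusted p = 1.12e-06). It gave 0.07 at BEZ235 IC50 (adjusted p = 0.752) and -0.08 at BKM120 IC90 (max) (adjusted p = 0.748). Without replicate 3 the same probe set gave 0.39 at BEZ235 IC50 (adjusted p = 0.000156). The mean over both probe sets gave 0.35 there (adjusted p = 0.0115), and 0.58 (adjusted p = 8.8e-09) without replicate 3.

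**Figure D4:**
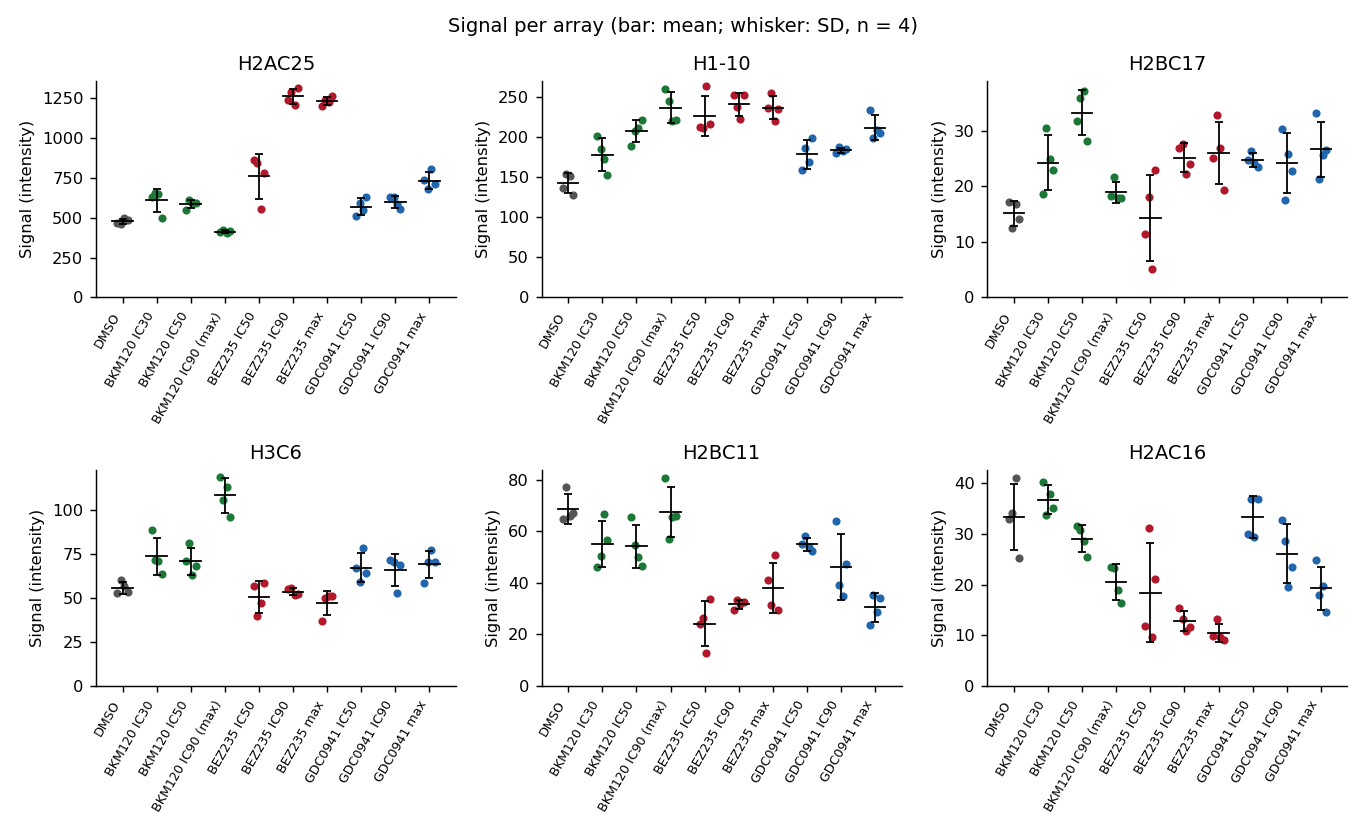
Signal (linear intensity) on each array for 6 histone genes in the 10 groups, with the mean as a bar and the SD over 4 arrays as a whisker. H2AC25 is highest with BEZ235 IC90 and max (1201 to 1314), H3C6 with BKM120 IC90 (max) (95.9 to 119), and H2BC11 and H2AC16 are low with BEZ235.

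Among the linker histones, H1-10 (older symbol H1FX) was the only tested member that rose in all 9 treatments. Its DMSO arrays read 136, 154, 151 and 128. They read 259.9, 245, 220.1 and 221 with BKM120 IC90 (max), 236, 255, 219 and 235 with BEZ235 max and 234, 199, 209 and 205 with GDC0941 max, with no overlap with DMSO. The log2 changes (SE 0.08) were 0.67 (adjusted p = 2.37e-08), 0.67 (adjusted p = 5.75e-09) and 0.52 (adjusted p = 1.74e-06). The smallest changes were 0.29 at BKM120 IC30 and 0.29 at GDC0941 IC50, and BKM120 IC30 overlapped DMSO. These calls were lost without BKM120 IC30 replicate 1 (adjusted p = 0.0563) and without GDC0941 IC50 replicate 4 (adjusted p = 0.0556). At BEZ235 IC50 the arrays read 212, 211, 263 and 216. Here the array that stood apart was the highest, and without it the change was 0.54 (adjusted p = 8.55e-07).

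The clustered linker histones are made mainly in S phase, and of them H1-1, H1-2, H1-3 and H1-5 were called against DMSO in at least 1 treatment. H1-2 read 457, 452, 496 and 441 in DMSO and 677, 507, 582 and 574 with BKM120 IC30. It rose at BKM120 IC30, 0.33 (adjusted p = 0.027), and IC50, 0.30 (adjusted p = 0.0489), and at GDC0941 IC50, 0.31 (adjusted p = 0.0434), and IC90, 0.29 (adjusted p = 0.0462), with SE 0.11. None of those groups overlapped DMSO, but each call was lost in 5 to 10 of 18 alternative settings, among them without DMSO replicate 1, 2 or 4 (adjusted p = 0.0557 to 0.116). They were also lost without BKM120 IC30 replicate 1 or 3, BKM120 IC50 replicate 1, 3 or 4, GDC0941 IC50 replicate 2, 3 or 4, or any replicate of GDC0941 IC90 (adjusted p = 0.0519 to 0.16). H1-5 fell at BEZ235 max, where it read 32.5, 28.3, 22.9 and 24.5 against 52.3, 45.7, 45.1 and 41.4 in DMSO. All 4 treated arrays lay below DMSO, and the change was -0.53 (adjusted p = 0.00401). The dim gene H1-1 read 15.8, 14.9, 13.6 and 18.7 in DMSO, 22.7, 27.4, 28.6 and 37.9 at GDC0941 IC50 and 9.0, 9.2, 9.3 and 5.5 at GDC0941 max. It rose at the lower dose, 0.50 (adjusted p = 0.0201), and fell at the higher, -0.39 (adjusted p = 0.0366), without overlap in either case. Both calls were lost without some single arrays, the rise without DMSO replicate 3 (adjusted p = 0.0566) or GDC0941 IC50 replicate 4 (adjusted p = 0.0967). The fall was lost without DMSO replicate 1, 2 or 4 or GDC0941 max replicate 1 or 4 (adjusted p = 0.0505 to 0.109). H1-3 rose at BEZ235 IC90, 0.51 (adjusted p = 0.0113), with overlap, and not without replicate 4 of that group (adjusted p = 0.0887). H1-4 stayed between -0.07 and 0.32 in all 9 comparisons and was never called. H1-9P, a transcribed pseudogene, fell at BEZ235 IC50, -0.21 (adjusted p = 0.0481), but without replicate 3 its change was -0.06 (adjusted p = 0.5).

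The largest fall was that of the core histone gene H2BC11 (older symbol HIST1H2BJ, chromosome 6, 27132316 to 27132795). It read 64.8, 77.2, 65.7 and 66.9 in DMSO. With BEZ235 it read 24.1, 26.3, 12.7 and 33.8 at IC50, 29.4, 33.2, 31.6 and 32.5 at IC90 and 41.0, 31.3, 50.6 and 29.5 at max. Every BEZ235 array was below every DMSO array. The changes (SE 0.14) were -1.10 (adjusted p = 3.38e-08), -0.83 (adjusted p = 2.8e-06) and -0.66 (adjusted p = 7.64e-05), and -0.95 (adjusted p = 1.96e-07) at IC50 without replicate 3. With GDC0941 max it read 23.5, 35.4, 28.8 and 34.3, a change of -0.87 (adjusted p = 2.01e-06). At GDC0941 IC90 the change was -0.46 (adjusted p = 0.00971), lost without replicate 3 of that group (adjusted p = 0.0595). With BKM120 IC90 (max) it read 80.4, 57.1, 65.6 and 65.9 and overlapped DMSO, with a change of -0.03 (95% interval -0.30 to 0.25).

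H2AC16 (older symbol HIST1H2AL), a core H2A gene in the same cluster, fell at the highest level of each compound. In DMSO it read 33.0, 34.1, 41.0 and 25.2, and at BEZ235 max 9.8, 13.2, 9.7 and 9.1. At BKM120 IC90 (max) and GDC0941 max it read 23.4, 23.3, 18.9 and 16.3, and 24.8, 18.0, 19.7 and 14.5. None of those 3 groups overlapped DMSO, and the changes (SE 0.13) were -0.89 (adjusted p = 2.22e-07), -0.43 (adjusted p = 0.00808) and -0.48 (adjusted p = 0.00224). At BEZ235 IC90 the change was -0.77 (adjusted p = 3.61e-06). At BEZ235 IC50, where replicate 2 overlapped DMSO, it was -0.55 (adjusted p = 0.000619), and -0.43 (adjusted p = 0.00636) without replicate 3. The lower levels of BKM120 and GDC0941 gave changes between -0.23 and 0.10 and no call. H2AC4, another core H2A gene, read 16.9, 18.3, 25.5 and 17.5 in DMSO and 13.4, 10.2, 24.5 and 15.2 at BEZ235 max, a change of -0.17 (adjusted p = 0.233), and passed the test in none of the 9 treatments.

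H2BC4 and H2AC6 (older symbols HIST1H2BC and HIST1H2AC) start 245 bases apart on opposite strands, with the stretch printed above between them. H2AC6 read 1039, 1059, 1160.3 and 1043 in DMSO, 1333, 1285, 1187 and 1338 at BEZ235 IC90 and 1289, 1394, 1407 and 1481 at max, without overlap. It rose by 0.25 (adjusted p = 0.000343) and 0.37 (adjusted p = 1.35e-06) (SE 0.06). H2BC4 read 25.7, 34.8, 24.2 and 32.5 in DMSO and 20.0, 25.2, 19.4 and 16.9 at BEZ235 IC90, and fell, -0.31 (adjusted p = 0.0234) (SE 0.12), with overlap. That call was lost without DMSO replicate 2 or 4 or BEZ235 IC90 replicate 4 (adjusted p = 0.0682 to 0.088). H2BC4 also fell at BEZ235 IC50, where it read 18.3, 13.4, 17.3 and 18.2, all below DMSO, with a change of -0.46 (adjusted p = 0.00173) and -0.47 (adjusted p = 0.00295) without replicate 3. H2AC6 changed by -0.10 there (adjusted p = 0.184), and by -0.08 (adjusted p = 0.302) without replicate 3. At GDC0941 max H2AC6 rose, 0.15 (adjusted p = 0.0364), and H2BC4 fell, -0.29 (adjusted p = 0.0477), with overlap in each. Each of those calls was lost in 8 or 9 of its alternative settings, most of them single left-out arrays. The H2AC6 call was lost without DMSO replicate 1, 2 or 4 or GDC0941 max replicate 2, 3 or 4 (adjusted p = 0.0517 to 0.187). The H2BC4 call was lost without DMSO replicate 2 or 4 or GDC0941 max replicate 1, 3 or 4 (adjusted p = 0.0912 to 0.153). The difference between the partners was not tested.

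H2AC17 and H2BC17 (older symbols HIST1H2AM and HIST1H2BO) share a stretch of 239 bases. H2BC17 read 17.2, 12.5, 16.9 and 14.1 in DMSO and 31.8, 36.0, 37.1 and 28.2 at BKM120 IC50, its largest rise, 0.66 (adjusted p = 0.000188) (SE 0.13), without overlap. It also rose at BKM120 IC30, 0.36 (adjusted p = 0.0345), at BEZ235 IC90, 0.40 (adjusted p = 0.00698), and max, 0.43 (adjusted p = 0.00428), and at GDC0941 IC50, 0.39 (adjusted p = 0.0301), IC90, 0.36 (adjusted p = 0.0333), and max, 0.45 (adjusted p = 0.00388). None of these groups overlapped DMSO. The calls at BKM120 IC30, GDC0941 IC50 and GDC0941 IC90 were lost without DMSO replicate 2 (adjusted p = 0.0966 to 0.103) or 4 (adjusted p = 0.0682 to 0.0762) and without replicates 2 and 3 of BKM120 IC30, 1 to 3 of GDC0941 IC50, or 1 and 3 of GDC0941 IC90 (adjusted p = 0.0526 to 0.139). At BEZ235 IC50 it read 11.4, 18.0, 5.1 and 22.9, with the lowest value on replicate 3, and the group overlapped DMSO. Without that array its change was 0.09 (adjusted p = 0.568). H2AC17 read 82.7, 76.5, 92.6 and 68.3 in DMSO and 79.3, 102, 93.5 and 103 at BKM120 IC50, with overlap. Its changes against DMSO lay between -0.24 and 0.20 (SE 0.12), with no call by limma in 9 comparisons and none at an unadjusted p under 0.05.

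**Figure D5:**
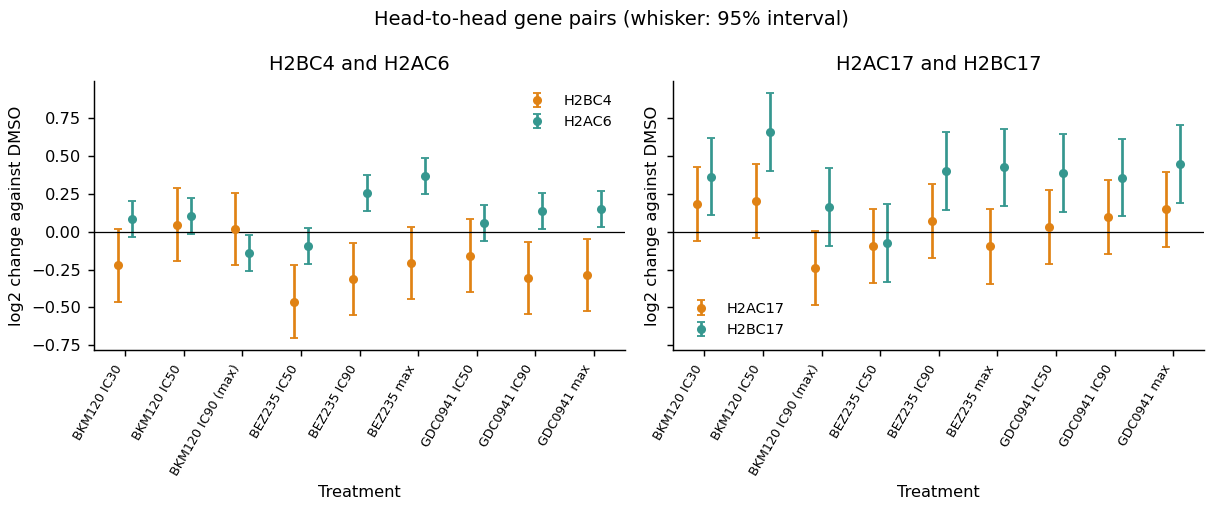
Log2 change against DMSO, with 95% intervals, of the divergent gene pairs H2BC4 with H2AC6 (left) and H2AC17 with H2BC17 (right) in the 9 treatments. At BEZ235 IC90 H2AC6 lies above 0 (0.25) and H2BC4 below it (-0.31), and H2BC17 lies above H2AC17 in every treatment.

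H1-2, H2AC6, H2BC4, H2BC5, H2BC12 and H2BC21 were listed as clustered genes known to make polyadenylated transcripts, and all 6 were tested. H2BC12 (older symbol HIST1H2BK) read 1717, 1694, 1798 and 1770.0 in DMSO and 1384, 1494, 1419 and 1471 at BEZ235 max, without overlap. It fell with BEZ235 at IC50, -0.14 (adjusted p = 0.00552), IC90, -0.20 (adjusted p = 0.00013), and max, -0.27 (adjusted p = 1.03e-06) (SE 0.04). The IC50 change was -0.11 (adjusted p = 0.0332) without replicate 3, and -0.26 (adjusted p = 8.27e-06) after quantile normalization. Its changes with the other compounds were positive, 0.05 to 0.12, and missed the threshold with all arrays. The array that stood apart enters the estimate of spread behind those tests. Their results without it are not given for this gene, so a rise with the other compounds is not excluded. H2BC21 (older symbol HIST2H2BE), on chromosome 1, read 275, 267, 336 and 382 in DMSO and 483, 421, 455 and 389.5 at BEZ235 IC90, without overlap. It rose there, 0.46 (adjusted p = 0.000632), at BEZ235 max, 0.44 (adjusted p = 0.00112), and at GDC0941 max, 0.39 (adjusted p = 0.00448) (SE 0.11), the last with overlap. Its rises at BKM120 IC90 (max), 0.29 (adjusted p = 0.0411), and GDC0941 IC90, 0.37 (adjusted p = 0.0113), overlapped DMSO. The latter was lost without DMSO replicate 1 or 2 or GDC0941 IC90 replicate 1 (adjusted p = 0.0545 to 0.0625). The former was lost without DMSO replicate 1 or 2 or any replicate of its own group (adjusted p = 0.0535 to 0.164). H2BC5 fell at BEZ235 IC50, -0.32 (adjusted p = 0.0138), but its change without replicate 3 was -0.09 (adjusted p = 0.181). At the highest levels of the 3 compounds, H1-2 gave 0.20, 0.13 and 0.25 for BKM120, BEZ235 and GDC0941, and H2BC5 gave 0.10, 0.04 and 0.18, all without a call. The list thus held members that rose and members that fell with BEZ235.

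Of the core genes for H3, H3C6 (older symbol HIST1H3E) was the only one called against DMSO. It read 52.9, 60.2, 56.8 and 53.2 in DMSO and 119, 105, 113 and 95.9 at BKM120 IC90 (max), where every array was above all DMSO arrays and the change was 0.79 (adjusted p = 1.01e-07) (SE 0.10). At BKM120 IC30 it rose by 0.31 (adjusted p = 0.023), a call lost without DMSO replicate 1 or 4 (adjusted p = 0.0583 to 0.0611) or BKM120 IC30 replicate 1 (adjusted p = 0.128). The mean over the probe sets of the gene gave 0.50 at IC90 (max) (adjusted p = 4.23e-07) and no call at IC30 (adjusted p = 0.242). At BKM120 IC50 the change was 0.27 (adjusted p = 0.0548). With BEZ235 max it read 36.9, 49.9, 50.9 and 51.3, all below DMSO, with a change of -0.19 (adjusted p = 0.112), and with GDC0941 max 58.7, 70.2, 77.1 and 70.7, a change of 0.24 (adjusted p = 0.0501). H3C3 read 240.4, 258, 255 and 246 in DMSO, and its changes lay between -0.28 and 0.28. H3C11 was dim, 9.5 to 16.1 in DMSO, with changes of 0.07 to 0.36. Of the H4 genes, H4C8 fell at BEZ235 IC50, where it read 41.2, 38.7, 32.0 and 38.6 against 48.7, 56.2, 64.7 and 46.3 in DMSO, without overlap. The change was -0.38 (adjusted p = 0.00342) and -0.33 (adjusted p = 0.015) without replicate 3. The dim gene H4C9 rose at GDC0941 max, 0.42 (adjusted p = 0.0143), with overlap, and the call was lost without DMSO replicate 3 or 4 or GDC0941 max replicate 1 (adjusted p = 0.0584 to 0.0696). H4C11 changed by -0.28 to 0.29 and was not called with all arrays. On the 39 arrays without BEZ235 IC50 replicate 3, H3C3, H3C11 and H4C11 each passed in at least 1 treatment.

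BEZ235 IC50 was the treatment with most histone genes lower than in DMSO, and its result rests in part on replicate 3. Of the 9 tested H2B genes 7 fell, with a family median of -0.32, beside 18.9% of all genes lower. Without replicate 3, 5 fell and the median was -0.11, beside 44.3% of all genes called in either direction. The 5 were H2BC11, H2BC4, H2BC6, H2BC12L and H2BC12. Genes with x_at probe sets show how far the array bears on the values. H2BC12L read 781, 756, 371 and 787 at BEZ235 IC50 and 842, 802, 900.2 and 843 in DMSO, so that the change of -0.38 (adjusted p = 0.00612) became -0.12 (adjusted p = 0.0329). H2BC6 read 293, 317, 129 and 332 against 354, 383, 414 and 365, and its change went from -0.56 (adjusted p = 0.00266) to -0.26 (adjusted p = 0.0236). H2AC14 went from -0.63 (adjusted p = 0.00433) to -0.43 (adjusted p = 0.038), and H2BC9 from -0.30 (adjusted p = 0.0395) to -0.09 (adjusted p = 0.44). In all 4 genes replicate 3 had the lowest value of the group. The array also bore on plain probe sets. For H3C3, BKM120 IC50 less BEZ235 IC50 was 0.53 with all arrays and 0.11 without replicate 3. Its BEZ235 IC50 change against DMSO was 0.15 without replicate 3. Over the whole set the counts were 2 rises and 11 falls with the array, and 3 and 8 without it. A fit of the 8 arrays alone, 4 of each group, called 4 members (14.3%), beside 18.9% of all genes in that fit.

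Of the 7 comparisons between compounds, those with most histone genes called set BEZ235 IC50 against the other compounds at IC50. BKM120 IC50 against BEZ235 IC50 gave 19 genes higher and 1 lower of 28, beside 32.1% of all genes (15.2% higher and 16.9% lower). Without BEZ235 replicate 3 it gave 14 higher and 1 lower (53.6%), beside 30.7%. Of the 9 H2B genes 8 were higher with BKM120 either way. The largest differences were H2AC14, 0.83 (adjusted p = 0.000572), H2BC11, 0.82 (adjusted p = 1.81e-05), H2BC17, 0.73 (adjusted p = 3.37e-05), and H2BC6, 0.73 (adjusted p = 0.000288), and none of those 4 overlapped. Without replicate 3 they were 0.63 (adjusted p = 0.00457), 0.67 (adjusted p = 0.00013), 0.57 (adjusted p = 0.000286) and 0.44 (adjusted p = 0.000474). The gene that was lower with BKM120 was H2AC25, -0.35 (adjusted p = 0.00203), with overlap, and -0.49 (adjusted p = 9.04e-07) without that array. The mean over its probe sets gave -0.04 (adjusted p = 0.797), and -0.28 (adjusted p = 0.00178) without that array. BEZ235 IC50 against GDC0941 IC50 gave 2 higher and 16 lower, beside 34.1% of all genes (18.6% higher and 15.5% lower), and without replicate 3, 2 higher and 12 lower, beside 33.6%. H2AC25 and H1-10 were the 2 that were higher with BEZ235, by 0.39 (adjusted p = 0.000603) and 0.31 (adjusted p = 0.00286), and by 0.53 (adjusted p = 1.54e-07) and 0.24 (adjusted p = 0.0165) without that array. The mean over the H2AC25 probe sets gave 0.10 (adjusted p = 0.527), and 0.33 (adjusted p = 0.000195) without that array. The largest difference downward was that of H2BC11, -0.84 (adjusted p = 8.47e-06), or -0.69 (adjusted p = 6.43e-05) without it. Fitted on their own 8 arrays, these comparisons called 6 and 2 members, beside 6.97% and 8.48% of all genes in those fits. BKM120 IC50 against GDC0941 IC50 gave 0 calls by limma, beside 0.598% of all genes called. At an unadjusted p under 0.05 there were 4 members, and the share of all genes at that threshold was not counted. On 39 arrays the share of all genes was 4.16%, and still 0 members passed limma's test. The member differences lay between -0.15 and 0.39, with 95% intervals reaching from -0.44 to 0.75, so they were not shown to be alike.

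At IC90, BKM120 (max) against BEZ235 gave 6 members higher and 3 lower, beside 45.1% of all genes (18.5% higher and 26.6% lower). H2AC25 was lower with BKM120, with a difference of -1.57 on the log2 scale (SE 0.09, adjusted p = 3.59e-17), with 4 arrays of 402 to 424 against 4 of 1209 to 1314. H3C6 and H2BC11 were higher with BKM120, by 0.83 (adjusted p = 1.78e-08) and 0.80 (adjusted p = 7.78e-06), without overlap. The mean over the H3C6 probe sets gave 0.53 (adjusted p = 9e-08). BKM120 IC90 (max) against GDC0941 IC90 gave 4 higher and 4 lower, beside 29.9% of all genes (11.7% higher and 18.2% lower), and 4 in all without BKM120 replicate 1. H3C6 was higher by 0.61 (adjusted p = 1.2e-05) and H1-10 by 0.34 (adjusted p = 0.00127), and H2AC25, -0.52 (adjusted p = 1.15e-05), and H2AC6, -0.28 (adjusted p = 0.000309), were lower, each without overlap. BEZ235 IC90 against GDC0941 IC90 gave 3 higher and 5 lower, beside 42.9% of all genes (23.0% higher and 20.0% lower). Without replicate 1 of either group it gave 5 in all. For the fits without a replicate 1, here and for BKM120 against GDC0941, the share of all genes called was not counted. H2AC25 was higher with BEZ235 by 1.06 (adjusted p = 1.9e-12) and H1-10 by 0.36 (adjusted p = 0.000383). H2AC16, -0.54 (adjusted p = 0.00076), and H2BC12, -0.29 (adjusted p = 9.88e-07), were lower. At max, BEZ235 against GDC0941 gave 2 higher and 4 lower, beside 36.5% of all genes (18.7% higher and 17.8% lower). H2AC25 was again higher with BEZ235, 0.74 (adjusted p = 1.19e-08), and H3C6, -0.43 (adjusted p = 0.000843), H2AC16, -0.41 (adjusted p = 0.0109), H2BC12, -0.35 (adjusted p = 3.15e-08), and H2BC12L, -0.33 (adjusted p = 0.0203), were lower without overlap. The mean over the H3C6 probe sets gave -0.21 (adjusted p = 0.0165). The H2AC16 and H2BC12L calls were lost without GDC0941 max replicate 1 (adjusted p = 0.0566) and BEZ235 max replicate 3 (adjusted p = 0.0515).

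From the lowest to the highest level of a compound, BKM120 gave 2 members higher and 6 lower, beside 34.0% of all genes (14.3% higher and 19.7% lower). H3C6 was higher by 0.48 (adjusted p = 0.000312) and H1-10 by 0.38 (adjusted p = 0.000258), while H2AC16, -0.54 (adjusted p = 0.00109), and H2AC25, -0.53 (adjusted p = 5.61e-06), were lower, all without overlap. GDC0941 gave 2 higher and 4 lower, beside 29.6% of all genes (16.3% higher and 13.3% lower). H2AC25 was higher by 0.36 (adjusted p = 0.00165), a call lost by the mean over its probe sets, 0.28 (adjusted p = 0.0624). H1-1, -0.89 (adjusted p = 2.35e-05), and H2BC11, -0.62 (adjusted p = 0.000597), were lower without overlap. BEZ235 gave 9 higher and 2 lower, beside 39.1% of all genes (20.2% higher and 18.9% lower), and without IC50 replicate 3, 5 higher and 3 lower, beside 39.4%. H2AC25 and H2AC6 were higher at max by 0.70 (adjusted p = 3.64e-08) and 0.46 (adjusted p = 5.6e-08), and by 0.56 (adjusted p = 2.14e-08) and 0.45 (adjusted p = 2.02e-07) without that array.

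The 22 members below the filter had signals of 0.1 to 28.8 over all arrays. They were the core genes H2AC8, H2AC15, H2BC3, H2BC13, H2BC14, H2BC15, H3C1, H3C2, H3C7, H3C8, H4C1, H4C4, H4C5, H4C7 and H4C13, the testis genes H1-6, H1-7 and H2BC1, the oocyte gene H1-8, the pseudogenes H2AC5P and H4C10P and the antisense H1-10-AS1. H2AC15, a core H2A gene, had the highest single value among them, with a mean of 5.65 in DMSO and 24.0 at BEZ235 max. No test of any of these genes singly is given in the report. They were in the alternative fit without a filter, and H3C2 was also in that of means over probe sets. A further 20 probe sets carried the symbols of several genes with at least 1 histone among them, and 15 of those were bright enough to test in a separate fit over all probe sets. Of the 15, 4 rose and 1 fell at BKM120 IC90 (max), 3 rose and 2 fell at BEZ235 max, and 1 rose and 1 fell at GDC0941 max. The share of all probe sets called in that fit was not counted, so these counts have no background beside them. The 15 probe sets are not assigned to any member.

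Genes that make or handle histone mRNA and protein were followed beside the members. Of 26 tested genes for histone mRNA expression and processing, 3 rose and 8 fell at BKM120 IC90 (max), 7 rose and 7 fell at BEZ235 max, and 5 rose and 6 fell at GDC0941 max. Their called shares were 42.3%, 53.8% and 42.3%, beside 34.2%, 57.7% and 43.7% of all genes. SLBP, which binds the stem-loop, fell with BKM120, -0.48 (adjusted p = 5.16e-09), and changed by -0.04 and -0.01 with BEZ235 and GDC0941, without a call. NPAT, the coactivator of clustered histone genes, fell with BKM120, -0.23 (adjusted p = 0.0114), and BEZ235, -0.17 (adjusted p = 0.0441), and rose with GDC0941, 0.20 (adjusted p = 0.0194). The NPAT fall with BEZ235 was lost without DMSO replicate 1, 2 or 4 or BEZ235 max replicate 1, 2 or 4 (adjusted p = 0.0718 to 0.119), and the rise without DMSO replicate 3 or GDC0941 max replicate 1 (adjusted p = 0.0557 to 0.0635). The mean over its probe sets gave -0.06 with BKM120 (adjusted p = 0.385) and -0.06 with BEZ235 (adjusted p = 0.294). LSM10, a subunit of the U7 particle that trims histone mRNA ends, fell in all 3, with -0.37 (adjusted p = 0.000613), -0.79 (adjusted p = 3.05e-10) and -0.45 (adjusted p = 2.87e-05). HINFP, a transcription factor of H4 genes, rose with BEZ235, 0.75 (adjusted p = 7.72e-10), and GDC0941, 0.28 (adjusted p = 0.00612), and changed by 0.15 with BKM120 (adjusted p = 0.151). Of 26 tested histone chaperones, which carry histones to DNA, 3 rose and 4 fell with BKM120 IC90 (max), 5 rose and 7 fell with BEZ235 max, and 2 rose and 7 fell with GDC0941 max. Their called shares, 26.9%, 46.2% and 34.6%, lay below the 34.2%, 57.7% and 43.7% of all genes. On 39 arrays 12 chaperones were called with BKM120 in place of 7, beside 43.4% of all genes. ASF1B fell with BEZ235, -1.05 (adjusted p = 4.42e-11), and GDC0941, -0.47 (adjusted p = 0.00025), and changed by -0.09 with BKM120 (adjusted p = 0.545). CHAF1B, a subunit of the CAF-1 complex, fell with BKM120, -0.75 (adjusted p = 5.42e-11), and GDC0941, -0.22 (adjusted p = 0.00844), and changed by -0.13 with BEZ235 (adjusted p = 0.0959).

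Many replication genes were lower at the highest levels. Of 53 tested S-phase and replication genes, 2 rose and 24 fell at BKM120 IC90 (max), 7 rose and 33 fell at BEZ235 max, and 1 rose and 24 fell at GDC0941 max, with medians of -0.18, -0.25 and -0.18. Their called shares were 49.1%, 75.5% and 47.2%, beside 34.2%, 57.7% and 43.7% of all genes. The medians of the 28 histone genes in the same comparisons were 0.04, -0.07 and 0.09, and of all genes 0.00, 0.04 and 0.03. The difference between the lists was not tested. At BKM120 IC30 and GDC0941 IC50, 5 and 2 of the 53 were called (9.43% and 3.77%), beside 21.3% and 16.1% of all genes. CCNE2, a cyclin of S-phase entry, fell in all 3, with -1.11 (adjusted p = 4e-10), -0.87 (adjusted p = 1.73e-08) and -0.45 (adjusted p = 0.00111), the last -0.70 (adjusted p = 1.11e-06) by the mean over its probe sets, and so did CDC6, with -0.91, -1.11 and -0.79. CCNE1 fell with BKM120, -0.95 (adjusted p = 2.11e-13), and BEZ235, -0.26 (adjusted p = 0.00144). The mean over its probe sets gave -0.48 (adjusted p = 9.19e-08) and no call with BEZ235, -0.08 (adjusted p = 0.268). PCNA, the replication clamp, also fell with both, -0.34 (adjusted p = 0.000144) and -0.31 (adjusted p = 0.000173). With GDC0941 CCNE1 and PCNA each changed by -0.08, without a call. Of 7 tested histone genes outside the clusters, 2 rose with BKM120 IC90 (max), 2 rose and 3 fell with BEZ235 max, and 2 rose and 1 fell with GDC0941 max. Their called shares were 28.6%, 71.4% and 42.9%, beside 34.2%, 57.7% and 43.7% of all genes. The centromeric histone CENPA rose with BKM120, 0.85 (adjusted p = 3.27e-09), and fell with BEZ235, -0.40 (adjusted p = 0.000381), and GDC0941, -0.70 (adjusted p = 1.05e-07). H2AZ2, a variant H2A, fell with BEZ235, -0.68 (adjusted p = 1.09e-10), and changed by 0.03 and -0.04 with BKM120 and GDC0941, without a call. H2AX, the variant phosphorylated at DNA breaks, was not called in the 3 comparisons (0.36, -0.08 and -0.04).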

How the data were processed

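Per the labels, A2058 cells were treated for 24 hours, and 50 ng of total RNA from each of 40 samples were amplified and hybridised to one-colour arrays. The deposited values are linear intensity signals that the authors made with MAS5, per the submitters' processing notes; its version was not given in the sources used here. Precision is limited by the number of arrays and by the array that stood apart, and no array repeated another. The authors' intensity was turned here into log2(deposited signal + 16), with no further normalization. Of 54675 probe sets, 41097 carry 1 gene symbol in the platform annotation, 1801 several and 11777 none. The probe set with the highest mean stood for a gene, and 11865 of 19775 genes with a mean above the 40th percentile were tested.

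One limma model (limma 3.58.1, R 4.3.3) over all 10 groups gave each comparison, with Benjamini-Hochberg adjustment over all genes tested in that comparison. It had no block for the replicate number. The procedure was tested on simulated data. Adjusted p under 0.05 was called, and "without overlap" means all 4 values of one group beyond all 4 of the other. Named genes were the polyadenylated list, up to 8 called genes per direction without overlap at the highest levels, up to 4 elsewhere, all genes of families of 5 or fewer and those nearest the filter. Of other lists up to 6 called genes were eligible, and SLBP, NPAT, H1-10, H2AX, CCNE1, CCNE2 and PCNA in any case. Genes outside these limits were chosen after their values were seen. Among them were H2AC4, H2AC17, H2AC15, H1-3 and H1-9P, and H2BC9 and H2BC12L at BEZ235 IC50. The members and lists were chosen with earlier results of these data known. Alternatives covered the pseudocount, filter, normalization, probe set choice, arrays fitted, replicate block and left-out arrays. The probe-set fit, and the fits of probe sets and their means without the array that stood apart, were added after seeing the data. Motifs were matched to the letters of RefSeq promoters.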

Additional observations from a re-analysis of the deposited data

Results flagged for a closer look

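Of 190 groups of 4 values looked at, 21 held a value far from the other 3; chance gives about 1 in 20 groups. BEZ235 IC50 replicate 3 accounted for 5 of the 21. It was lowest for H2BC12L (371.3), H2BC5 (284.2), H2BC6 (128.8) and the mean log2 histone signal (6.49), and highest for H1-10 (262.7). Replicate 3 of other groups was lowest for H2BC12L at BEZ235 IC90 (715.0), H2BC5 at GDC0941 IC90 (592.2), H3C6 at GDC0941 IC90 (52.8), H2BC6 at GDC0941 max (313.2) and H1-1 at BKM120 IC30 (18.3). It was highest for H1-1 at BEZ235 max (18.1), H1-2 at GDC0941 max (656.5) and H2AC6 in DMSO (1160.3). Replicates of one number in different groups are separate samples. Replicate 4 was lowest for H1-1 at GDC0941 max (5.5), H2AC25 at BKM120 IC30 (499.5), H2BC21 at BKM120 IC90 (max) (370.1) and the mean log2 histone signal at BKM120 IC50 (7.16). Replicate 1 was lowest for H2AC14 at GDC0941 IC50 (53.0), H3C6 at BEZ235 max (36.9) and the mean log2 histone signal at BEZ235 max (6.99). H2BC17 at BKM120 IC90 (max) was highest on replicate 2 (21.6).

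The change of H2AC25 differed between compounds at the level named IC90. BKM120 less BEZ235 was -1.57 (limma, adjusted p = 3.59e-17) and BEZ235 less GDC0941 was 1.06 (adjusted p = 1.9e-12), with all 4 arrays of each group apart.

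Probe sets that carry several gene symbols also changed against DMSO. One with 10 symbols gave -0.52 at BKM120 IC90 (max), one with 14 symbols gave 0.59 at BEZ235 max, and one with 5 symbols gave -0.84 at BEZ235 max.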

How the results depend on the processing

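Of 66 calls of a histone gene against DMSO, 35 held under every alternative in which the gene was tested. The other 31 were lost in at least 1, and none changed direction. The dimmer members were not in the fit of genes above the 60th percentile. With genes above the 60th percentile the called members were 3, 2 and 2 for BKM120 IC30, IC50 and IC90 (max), 8, 5 and 5 for BEZ235 IC50, IC90 and max, and 4 for GDC0941 max. At IC50 they were then 10 for BKM120 against BEZ235 and 11 for BEZ235 against GDC0941. At IC90 they were 4, 3 and 4 for BKM120 against BEZ235, BKM120 against GDC0941 and BEZ235 against GDC0941. The steps of BKM120, BEZ235 and GDC0941 gave 3, 6 and 2, and 1 non-clustered gene was called at BKM120 IC90 (max). Fewer members were tested there, and the share of all genes called was not counted. With only the 8 arrays compared the counts were 9 and 8 for BKM120 IC50 and IC90 (max), beside 25.7% and 42.4% of all genes. BEZ235 IC50 gave 4, beside 18.9%. At IC50, BKM120 against BEZ235 gave 6 and BEZ235 against GDC0941 gave 2, beside 6.97% and 8.48%. BKM120 against BEZ235 at IC90 gave 14, beside 54.8%, and the BEZ235 step gave 3, beside 15%. Of the chaperones 11 were called at BKM120 IC90 (max), beside 42.4% of all genes. On the 39 arrays without BEZ235 IC50 replicate 3 the member counts were 8, 12 and 9 for BKM120, beside 29.4%, 29.0% and 43.4%. GDC0941 IC50 gave 8, beside 24.0% of all genes. BKM120 against BEZ235 at IC90 gave 15, beside 53.1%, and BEZ235 against GDC0941 at max gave 10, beside 45.5%. Of the chaperones 12 were called with BKM120 IC90 (max), beside 43.4%. Quantile normalization gave 13 for the BKM120 step, and no filter gave 3 for GDC0941 IC50. The share of all genes called was not counted in these settings, nor for other left-out arrays or the replicate block. The cause was not tested. Leaving out 1 array of the groups compared gave 2 to 5 for BKM120 IC30. For GDC0941 IC50, IC90 and max it gave 1 to 5, 3 to 8 and 6 to 9. At IC90 it gave 4 to 8 for BKM120 against GDC0941 and 5 to 8 for BEZ235 against GDC0941. Replicate numbers did not pair the arrays: over 180 same-numbered pairs the deviations correlated at -0.0127 on average (-0.321 to 0.311), and 7 of 40 arrays correlated best with their own number. The replicate block gave 3 called members for GDC0941 IC50 in place of 5, and kept every other count within 1.5 times. Signals near background and probes shared by histone copies limit what single genes can show.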
